A study of Triticum aestivum with 12 samples.

Results

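The effect of putrescine (PUT) on the methylated DNA coverage of wheat leaves was taken over white (W) and blue (B) light together. The 6 libraries of the PUT treatment (WP and BP) were set against the 6 control libraries (WC and BC), with light as an additive factor, and these are all 12 libraries of the series. Loci were kept where the count was above 10 in at least 4 of the 12 libraries, which left 338612 of 11509120 loci (2.94%).

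The study asked how exogenous PUT and the light spectrum change 5-methylcytosine (5mC) in winter wheat (Triticum aestivum, variety Mv Béres). Seedlings grew in hydroponic solution at 250 µmol m-2 s-1 under W light, in which green made up 45.71%, blue 32.32% and red 20.71%, or B light, in which blue made up 82.14%, red 16.7% and green 1%, and the plants of WP and BP received 0.5 mM PUT for the last 7 days while WC and BC received none. Green leaves were harvested, methylated fragments were enriched with an antibody (MeDIP-seq), and each group had 3 biological repetitions. Per the methods of the study, all came from 1 of its independent experiments, so p values describe the spread between repetitions of that experiment.

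PUT is the diamine from which plants build spermidine and spermine. The aminopropyl groups for these steps come from S-adenosylmethionine, which is also the methyl donor for 5mC, so both pathways draw on 1 metabolite. In wheat leaves most 5mC lies in transposons and other repeats, and bread wheat carries 3 related subgenomes (A, B and D), whose corresponding chromosomes, such as 6A, 6B and 6D, are called homoeologous.

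A count is the number of reads that a library placed at a covered section of the genome (locus). It reflects both the 5mC of a locus and how many copies of its sequence the genome holds, and these cannot be told apart without input libraries, which were not used here. Libraries held 15812048 to 21355140 reads in all, and PUT libraries exceeded controls by 61555 reads on average, which was within the spread (two-sided exact permutation within light, p = 0.93). Single loci had few reads. The mean over the 12 libraries had a median of 9.67 among the kept loci, and libraries of a group agreed weakly (r of -0.0888 to 0.25 across loci on the log2 scale, against -0.1145 to 0.3355 between groups). WC replicate 1 stood apart by its scaling factor of 1.45 and by the smallest number of loci with a count, 1563154, and BP replicate 3 had the lowest factor, 0.823. Some of the values below are therefore also given without these libraries, and others were not stable to leaving them out either.

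More loci were called higher than lower with PUT, but few in all, and the split depended on the scaling and on single libraries, as given below. With edgeR's quasi-likelihood test, 675 loci were called higher with PUT (0.199% of those tested) and 135 lower (0.0399%), where a call needs a log2 fold change beyond 1.5 in size with p below 0.01 before adjustment. The number of loci with a p below 0.01 was 871, or 0.257%, which is under the 1% that the threshold allows by itself. After adjustment over all loci (Benjamini-Hochberg) 4 loci were left below 0.05, all higher with PUT (0.00118%). None was lower, although 1342 of the 5942 loci with an unadjusted p below 0.05 (1.75%) were lower. DESeq2 gave 15 higher and 3 lower loci at an adjusted p below 0.05, and the likelihood ratio test of the study gave 1 and 0. In limma voom it was 15 higher and 59 lower, the opposite split, and 4 and 42 with robust moderation. There the precision weights had a median of 0.407 and rose to 6.3e+07. Of the 74 loci, 50 had a mean count above 100, and with robust moderation 21 of the 46 had. These calls are given below only beside those of the other fits.

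The surplus of higher calls depended on the scaling. The median log2 fold change of all loci was 0.13 with TMM factors and 0.01 with library sizes alone, and the calls were then 499 higher and 358 lower, so that 58.2% instead of 83.3% of the called loci were higher. Leaving out BP replicate 3 raised the lower calls to 348, and leaving out WC replicate 1 as well raised them to 474, with 653 higher. Leaving out WP replicate 3 reduced the higher calls to 341, and leaving out BP replicate 2 or WP replicate 2 gave 367 and 410.

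**Figure D1:**
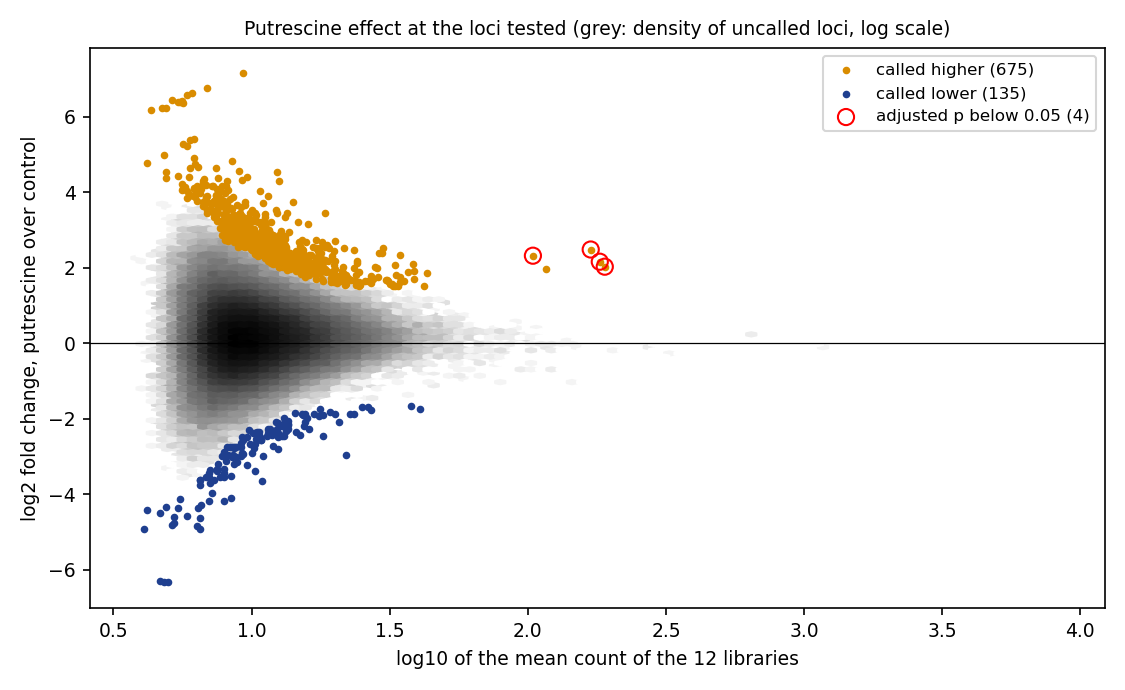
Log2 fold change of each tested locus (PUT over control, y axis) against the log10 of its mean count (x axis). The 675 loci called higher and 135 called lower lie mostly at low counts, as do the tested loci, and have larger folds there. The share called was larger at higher counts, with 0.128% higher and 0.0478% lower at mean counts up to 8. From above 30 to 100 it was 0.76% and 0.076%. The 4 loci with an adjusted p below 0.05 (red circles) lie at mean counts above 100 with 1 more called locus. Grey shows the density of the uncalled loci on a log scale.

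**Figure D2:**
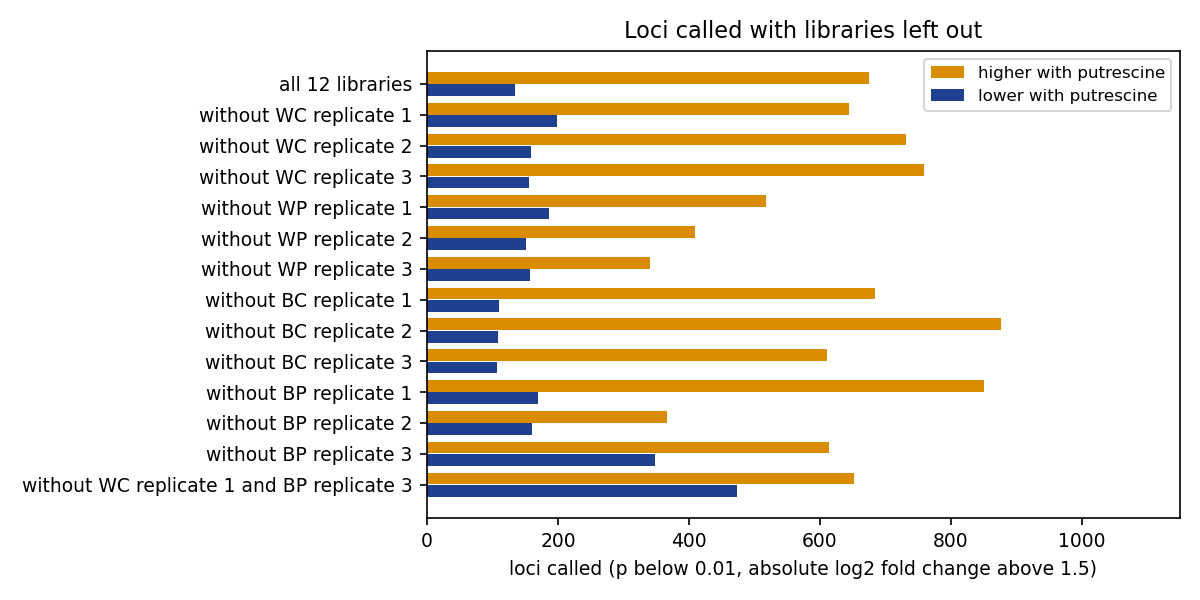
Loci called higher and lower with PUT (x axis, number of loci) with all 12 libraries and with libraries left out (y axis). Higher calls ranged from 341 to 877 and lower calls from 107 to 348 when 1 library was left out.

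The 4 loci that passed the adjustment lay near the starts of the 3 homoeologous chromosomes of group 6, and all were higher with PUT under both lights. One more locus of the same kind, also on 6A, followed at an adjusted p of 0.134 (edgeR). The 5 loci were grouped after their values were seen, as those in the first 20000000 bases of chromosomes 6A, 6B and 6D with a p below 1e-05. They were also the only loci called, in either direction, among the 167 loci with a mean count above 100.

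The leading locus lay on chromosome 6A at 9974949 to 9979051, 6791 bp from the nearest annotated protein-coding gene, LOC123131635. Its counts were 28, 25 and 46 in WC against 52, 147 and 504 in WP, and 48, 39 and 117 in BC against 414, 433 and 174 in BP. WP replicate 1 lay within the range of the controls after scaling, and the other 5 PUT libraries lay above it. The scaled mean was 55.5 ± 43.5 in control and 280.6 ± 167.1 with PUT (SD, n = 6 libraries each), a ratio of 5.05. The log2 fold change was 2.48 (SE 0.36, adjusted p = 0.00122 in edgeR), with 2.90 under W and 2.06 under B light, and was 1.87 without WP replicate 3.

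At the locus on chromosome 6D (9104670 to 9106833), WC had 25, 56 and 64 reads against 142, 336 and 423 in WP, and BC had 72, 69 and 163 against 445, 318 and 166 in BP. Again only WP replicate 1 was within the range of the controls, set by BC replicate 3. Coverage changed by a log2 fold change of 2.02 (SE 0.33, adjusted p = 0.00813 in edgeR).

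Chromosome 6B held a pair of such loci. The locus at 18132046 to 18136039 lies inside the protein-coding gene LOC123138634 (18123573 to 18140870), for which no product name was used here, and had 34, 15 and 85 reads in WC against 119, 338 and 389 in WP, and 124, 37 and 99 in BC against 530, 275 and 141 in BP. Its log2 fold change was 2.16 (SE 0.35, adjusted p = 0.00813 in edgeR). The locus at 18152001 to 18156206, 5406 bp from LOC123135422, had 12, 27 and 33 reads in WC against 77, 163 and 321 in WP, and 79, 18 and 36 in BC against 262, 132 and 92 in BP. Its log2 fold change was 2.31 (SE 0.40, adjusted p = 0.0178 in edgeR). The second locus of 6A, 9941731 to 9947175, had 9, 56 and 53 reads in WC against 80, 241 and 201 in WP, and 58, 23 and 72 in BC against 332, 200 and 75 in BP, with a log2 fold change of 1.96 (SE 0.38).

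After scaling, every PUT library was above every control of the same light at each of them, and over both lights only WP replicate 1 fell into the range of the controls. Over the 12 libraries their scaled log2 counts correlated pairwise with r between 0.829 and 0.94 (10 pairs, a description). The loci were chosen for the difference between PUT and control, which enters this r. For deviations from the group means, which leave it out, r was 0.527 to 0.87. The other tested loci within 100000 bp did not follow. These were 4 on 6A, with log2 fold changes of -0.01 to 0.48, 5 on 6D (-0.54 to 0.38) and 1 on 6B (0.96), with a smallest unadjusted p of 0.311. How reads that fit several places were counted is not given in the sources used here, so the 5 loci may not be independent measurements, and this was not tested.

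**Figure D3:**
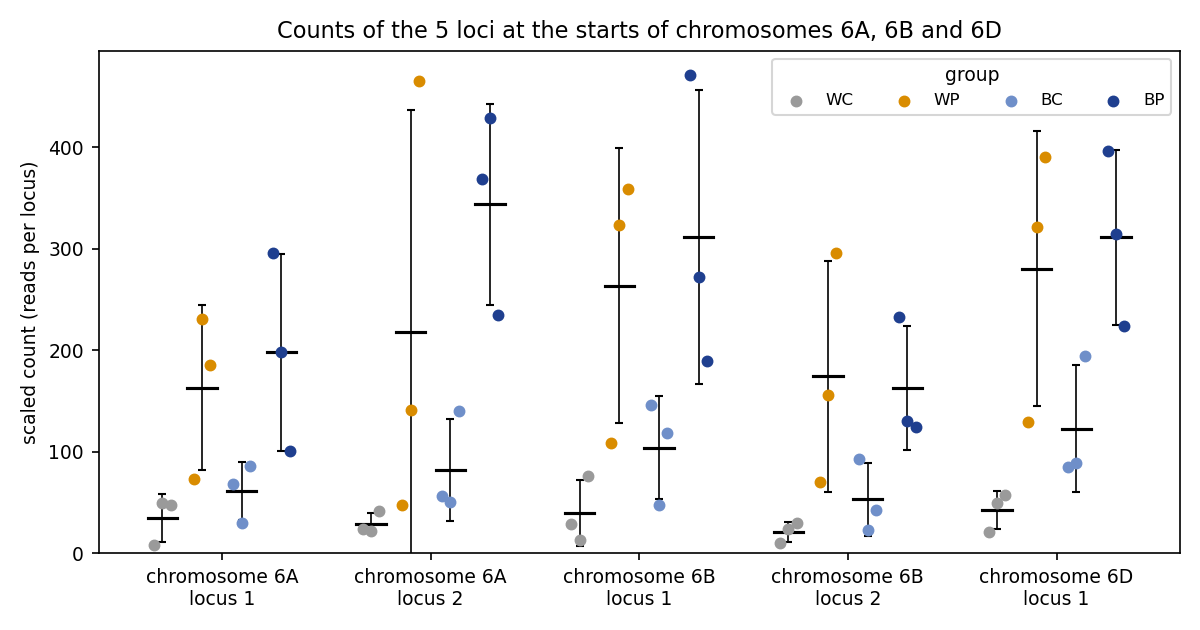
Scaled count (y axis, reads per locus) of the 5 loci of chromosomes 6A, 6B and 6D, numbered along each chromosome, in WC, WP, BC and BP. Points are libraries, lines are means and bars are 1 SD of 3 libraries (cut at 0). At each locus the mean of WP is above that of WC and the mean of BP above that of BC.

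All 5 loci were higher with PUT in every fit tried, with log2 fold changes between 1.72 and 2.77 when 1 library was left out, but the adjusted p was less stable. No locus of the series stayed below 0.05 without WC replicate 1, without WC replicate 2 or without WP replicate 3, and 7 did without BP replicate 3. Without WC replicate 1 and BP replicate 3 together, all 5 had an adjusted p between 0.00205 and 0.011 (edgeR). In DESeq2 all 5 passed, with 5.74e-05 to 0.00234, and in the likelihood ratio test none did, with 0.0983 to 0.613. All 5 passed in limma voom, and none with its robust moderation (adjusted p = 0.919), with treatment alone or with a count above 10 in 6 libraries or above 20 in 4.

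The other leading loci on the higher side were found at low counts. On chromosome 6B at 317471255 to 317472187, in an interval 179911 bp from the nearest gene, no control library had a read, while WP had 12, 10 and 29 and BP had 32, 21 and 8. The groups did not overlap, and coverage with PUT was at least 34.2-fold higher, taking 3 counts over all controls as the floor, which covers counting error only. Only PUT libraries had counts above 10 here. The locus thus passed the filter through the high group alone, so the gap is a description and no separate support. The adjusted p was 0.134 in edgeR and 0.0014 in the likelihood ratio test. Scaled counts of PUT and control libraries did not overlap at 357 loci on the higher side (0.105%) and at 178 on the lower side (0.0526%). Of the called loci, 90 of 675 higher and 30 of 135 lower were of this kind, and the rule for a call draws on the same counts.

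On the lower side, no locus passed the adjustment in edgeR. The smallest p belonged to a locus on chromosome 4A, 601644732 to 601648403, that overlaps the pseudogene LOC123087415, a gene copy annotated as having lost its function. Its counts were 72, 21 and 18 in WC against 9, 6 and 5 in WP, and 16, 52 and 53 in BC against 0, 10 and 1 in BP, with no overlap between PUT and control. Only control libraries had counts above 10, so this locus passed the filter through the high group alone. The log2 fold change was -2.98 (SE 0.64), with an adjusted p of 0.634 in edgeR and 0.00343 in DESeq2. Next on this side came a locus of 1D at 395747225 to 395748824 (log2 fold change -1.22, SE 0.28), one of 4A at 699466146 to 699468278, one of 5D at 4876193 to 4877833 (-1.75, SE 0.46) and one of 1A at 556463121 to 556465346 (-1.28, SE 0.34). Without WC replicate 1 and BP replicate 3 the value of the 1D locus was -0.84. The locus of 5D held 14 to 111 reads in control and 7 to 45 with PUT, so that the groups overlapped.

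Genes were close to a minority of the called loci. Of the 23124 tested loci in or within 3000 bp of a protein-coding gene, 73 were called higher (0.316%) and 19 lower (0.0822%), against 0.199% and 0.0399% of all loci. Without BP replicate 3 the lower calls near genes were 33 (0.143%, against 0.103% of all loci). Without TMM factors the calls near genes were 65 higher (0.281%) and 42 lower (0.182%), against 0.147% and 0.106% of all loci. Among the 7789 loci that overlap a gene, 29 were higher (0.372%) and 9 lower (0.116%). The median log2 fold change of the overlapping loci was 0.19, against 0.13 for all loci. Without TMM factors the calls overlapping genes were 26 higher (0.334%) and 22 lower (0.282%).

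Product names were known for 500 of the loci near genes, of which 14 were called higher (2.8%, against 0.316% of all loci near genes) and 1 lower. The names come from the lists of genes that the study itself found changed in these libraries, so the list selects for calls and is no independent evidence of a direction. None of those named below passed the adjustment in edgeR (adjusted p of 0.791 to 1). The loci at LOC542886, LOC123145967, LOC123132118, LOC123079239 and LOC123147342 had counts above 10 in PUT libraries alone. At these the filter drew on the high group, so a gap between the groups is no separate support.

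The locus with the smallest p among them lies on chromosome 3A at 715016239 to 715016947, 1217 bp from LOC542886, acetyl-CoA carboxylase 1, whose enzyme makes malonyl-CoA for fatty acid synthesis. WC had no reads against 7, 0 and 35 in WP, and BC had 3, 0 and 5 against 37, 26 and 38 in BP. The BP libraries were clear of BC, while WP replicate 2 was at 0 like the WC libraries. The log2 fold change was 4.28 (SE 0.94), with an adjusted p of 0.791 in edgeR and 0.019 in DESeq2. At a locus of 6D (469232980 to 469234325) that overlaps LOC123145967, a bifunctional nuclease 1-like gene, counts were 0, 7 and 5 in WC against 15, 21 and 12 in WP, and 1, 0 and 0 in BC against 26, 3 and 44 in BP. The log2 fold change there was 3.42 (SE 0.95), and only BP replicate 2 fell into the range of the controls.

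The remaining named genes have varied functions. A locus on 6A (73454469 to 73456476) that overlaps LOC123132118, a homolog of calnexin, the chaperone of glycoprotein folding in the endoplasmic reticulum, had 8, 10 and 1 reads in WC against 15, 14 and 40 in WP, and 8, 6 and 7 in BC against 15, 38 and 35 in BP. The groups did not overlap, and the log2 fold changes under W and B light were 1.93 and 1.92. Near LOC123079239 on 3D, a CURVATURE THYLAKOID 1C-like gene of a protein family that bends thylakoid membranes, no control library had a read, and PUT libraries had 0 to 22, which is at least 18.8-fold higher over the group. WP replicate 2 and BP replicate 1 had no reads there either. Near LOC123061441 on 3A, which is like the transcriptional corepressor LEUNIG, the log2 fold change was 2.86 (SE 0.85), with BP replicate 3 the highest library at 71 reads. Without WC replicate 1 and BP replicate 3 this log2 fold change was 1.82. The loci near the CR4-like kinase gene LOC123147342 on 7A and overlapping the gp1-like cell wall protein gene LOC123143823 on 6D had log2 fold changes of 3.93 (SE 1.17) and 1.52 (SE 0.49). For the benzaldehyde dehydrogenase-like gene LOC123150072 on 7A, the RNA pseudouridine synthase 7-like gene LOC123105416 on 5A and the heavy metal-associated isoprenylated protein 3-like gene LOC123131355 on 6A, the values were 2.30, 1.89 and 1.69. At these 3 the values without WP replicate 3 were 1.14, 1.19 and 1.09.

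The named gene on the lower side was LOC123084317, an FTSH 4-like zinc metalloprotease of mitochondria, a family that degrades damaged membrane proteins. The locus, 1518 bp from the gene on chromosome 4A, had 20, 10 and 5 reads in WC and none in WP, and 13, 34 and 12 in BC against 2, 3 and 2 in BP. The groups did not overlap, and the log2 fold change was -4.10 (SE 1.05). Only control libraries had counts above 10, so the locus passed the filter through the high group alone.

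The lists of pathways around PUT held only 10 tested loci in all, none of them called, and with 0.239% of all loci called this says nothing about the pathways. Of the polyamine list, 2 genes were recognised by name and 1 had tested loci, LOC123125309, a putrescine hydroxycinnamoyltransferase 3-like gene on 5D, whose enzyme type couples PUT to phenolic acids. Its locus 811 bp away had 0, 6 and 5 reads in WC against 17, 16 and 29 in WP, and 7, 7 and 5 in BC against 19, 6 and 7 in BP. All libraries of WP were above WC, while BP overlapped BC. Only PUT libraries had counts above 10 at this locus. The log2 fold change of 1.49 (SE 0.87) was not called (unadjusted p = 0.0933 in edgeR). The second locus, 467 bp away, had a log2 fold change of 2.02 (SE 1.45), which was 0.52 without WP replicate 1 and 3.24 without BC replicate 2.

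Genes that share the methyl donor had 1 or 2 tested loci each. SAHH on 2B, adenosylhomocysteinase, which removes the product that inhibits methyltransferases, had 1 tested locus with no reads in WC against 3, 15 and 11 in WP, and 12, 5 and 5 in BC against 0, 1 and 14 in BP. Its log2 fold change of 1.97 (SE 1.64) was 1.26 without WC replicate 2 and 0.48 without WC replicate 1 and BP replicate 3. DRM2-like LOC123103996 on 5A, a DNA methyltransferase of the RNA-directed pathway, had 0 to 20 reads in control and 0 to 21 with PUT, with a log2 fold change of 0.26 (SE 0.94) that turned to -0.96 without WP replicate 2. For ethylene synthesis, which also uses S-adenosylmethionine, a locus overlapping the 1-aminocyclopropane-1-carboxylate oxidase 1-like gene LOC123121703 on 5D had 0 to 20 reads in control and 18 to 45 with PUT. Within each light all PUT libraries were above the controls. The log2 fold change was 1.51 (SE 0.65, unadjusted p = 0.0243 and adjusted p = 1 in edgeR), and that of the second locus of this gene was -0.73 (SE 1.08). In the light list, 4 loci at 2 genes, a chlorophyll a-b binding protein gene and a PHYTOCHROME-DEPENDENT LATE-FLOWERING-like gene, had a median log2 fold change of -0.27, against 0.13 over all loci. No gene of the GABA shunt was recognised by name.

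Called loci had features that the rule did not use. Short loci were called higher more often than long ones, with 43 of 2612 loci of at most 1000 bp (1.65%) and 21 of 21652 loci above 5000 bp (0.097%). Lower calls were 3 of the short loci (0.115%) and 6 of the long ones (0.0277%), against 0.0399% of all loci. Without BP replicate 3 the short loci had 11 lower calls (0.421%, against 0.103% of all loci). Loci with a lncRNA gene, a gene for a long RNA that codes for no protein, were called higher in 19 of 1791 cases (1.06%) and lower in 2 (0.112%), against 0.199% and 0.0399% of all loci. Without WC replicate 1 and BP replicate 3 the higher calls were 34 short loci (1.3%) and 15 loci with a lncRNA gene (0.838%), against 0.193% of all loci. The lower calls were then 7 (0.268%) and 7 (0.391%), against 0.14% of all loci. In the outer 10% of the chromosomes at each end, 83 of 35053 loci were higher (0.237%) and 35 lower (0.0998%), and in the interior 592 (0.195%) and 100 (0.0329%). Without BP replicate 3 the lower calls of the outer 10% were 65 (0.185%, against 0.103% of all loci). Without TMM factors the outer loci turned to 66 higher (0.188%) and 95 lower (0.271%), against 0.147% and 0.106% of all loci. The shares were 0.229%, 0.198% and 0.172% higher and 0.0462%, 0.0450% and 0.0284% lower in subgenomes A, B and D. Among single chromosomes, the share of higher calls went from 0.109% on 2D to 0.302% on 6B.

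Called loci differed in how far the libraries within a group followed their order at the group 6 loci. Deviations of the 12 libraries from their group means were correlated with those of the summed 5 loci, and the median r was 0.443 for the 43 short loci called higher, 0.19 for the 627 longer ones besides those 5 and -0.173 for the 135 called lower. Among loci that were not called it was 0.0698 for the 2566 short and 0.102 for the 335236 longer ones. These are descriptions across loci, and the loci share libraries and depth.

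Of the 810 called loci, 20 pairs of neighbours lay within 100000 bp of each other, and all 20 pairs had the same direction. Since 83.3% of the called loci were higher, many pairs would share a direction by that alone. The share among neighbours that were not called was not taken. Some gaps were short, such as 18, 46 and 116 bp, so these pairs may not be separate measurements. The densest runs were on 7B and 4D, and they were picked out after their values were seen. On 7B, 4 loci of 733 to 987 bp between 629010441 and 629042758, more than 250 kb from the nearest gene, summed to 30, 7 and 31 reads in WC against 26, 164 and 162 in WP, and 54, 3 and 47 in BC against 309, 164 and 74 in BP. WP replicate 1 was within the range of the controls, and the other PUT libraries were above them. On 4D, 5 loci between 2581545 and 2727865 summed to 13, 57 and 32 reads in WC against 62, 95 and 243 in WP, and 28, 15 and 43 in BC against 176, 152 and 84 in BP, with no overlap between the treatments. In both runs some loci passed the filter through PUT libraries alone.

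The loci with the highest counts leaned the other way in the pooled comparison and under B light, but not under W light. Of the 167 loci with a mean count above 100, 33 were lower and 13 higher, the 5 of group 6 included, at an unadjusted p below 0.05 in edgeR, while over all loci 1342 were lower and 4600 higher. The median log2 fold change of the 167 was -0.07, with 0.06 under W and -0.24 under B light, and 59.9% were above 0 under W light against 32.3% under B light. None of the lower ones reached the fold change of a call, and the adjusted p was 1 for each one named here. Without WC replicate 1 the lower loci were 21, with a median of -0.13 for all 167, and without BP replicate 3 as well they were 36, with a median of -0.17.

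A pair of these lower loci, picked out after their values were seen, overlaps genes like those of plastids. Chloroplast sequence is not among the loci, so the part of chloroplast DNA in these counts, which were high in BC and in WC replicate 1, was not tested. The locus of 1A at 556463121 overlaps LOC123067330, like the gene of the photosystem II D2 protein, which plants encode in the chloroplast, and holds a tRNA-Ser (GCU) gene. It had 116, 39 and 76 reads in WC against 25, 27 and 57 in WP, and 176, 305 and 177 in BC against 117, 110 and 45 in BP. BP was below BC in all libraries, and WP overlapped WC. A locus of 5D at 515689767, in LOC123123368, like the beta'' subunit of a DNA-directed RNA polymerase, which transcribes plastid genes, had 258, 33 and 62 reads in WC against 28, 55 and 121 in WP, and 243, 290 and 266 in BC against 98, 102 and 59 in BP. Here too BP was below BC, WP overlapped WC, and the log2 fold change of -1.27 was -0.86 without WC replicate 1. The locus of 1D at 395747225 had 232, 70 and 112 reads in WC against 55, 41 and 87 in WP, and 341, 403 and 406 in BC against 260, 189 and 97 in BP. BP was below BC, WP overlapped WC, and the B groups were above most W libraries.

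Loci with a tRNA gene, 75 in all, had a median log2 fold change of -0.28, with 10 lower and 1 higher at an unadjusted p below 0.05 (edgeR) and no call. That is 14.7% of them, against 1.75% of all loci, where 1342 were lower and 4600 higher. Without WC replicate 1 the median was -0.18 with 8 lower, and without BP replicate 3 as well -0.15 with 4 lower. With all libraries, the 70 of them with a mean count of 100 or less had 5 lower and 1 higher, with a median of -0.16. The 5 of them with mean counts above 100 summed to scaled counts of 403 to 981 in WC, 303 to 639 in WP, 2472 to 3061 in BC and 843 to 1208 in BP. The BP libraries were all below BC, WP overlapped WC, and B libraries were above all W libraries other than WC replicate 1. Other loci of high count rested on 1 library. At 346441270 to 346442186 of 5A, BP replicate 3 had 2498 reads and no other library more than 702, and the log2 fold change of 1.35 was 0.45 without it. The first 96 bases of chromosome 4A had 3077 reads in BP replicate 3 and 53 to 978 elsewhere, and the log2 fold change of 1.24 was 0.37 without that library.

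Some shares of the count by kind of sequence differed between PUT and control before adjustment for the number of values tested. None passed the adjustment, which the test makes hard to pass, as given below. Loci that overlap protein-coding genes took 2.98 ± 0.558% of the count in control and 2.14 ± 0.254% with PUT (SD, n = 6 libraries each, exact permutation within light, p = 0.025). BC libraries had 3.39%, 3.29% and 3.40% against 2.29%, 2.31% and 1.73% for BP, without overlap. WC libraries had 3.29%, 2.20% and 2.34% against 1.92%, 2.20% and 2.38% for WP. The W groups overlapped, and without WC replicate 1 the difference under W light was -0.101 percentage points, against -1.25 under B light. Whether the effect differs between lights was not tested.

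Other shares moved in the same libraries. The share in mitochondrial sequence was 0.000976 ± 0.000359% in control and 0.000495 ± 0.00015% with PUT (exact permutation, p = 0.005), which rests on 96 to 277 reads per control library and 57 to 151 per PUT library. PUT minus control was -0.986 percentage points for the share in or within 3000 bp of genes (p = 0.03), -1.16 for the outer 10% of the chromosomes (p = 0.03) and -0.483 for subgenome B (p = 0.015, all by exact permutation). Under W light, leaving out WC replicate 1 turned the difference from -0.378 to 0.0468 within 3000 bp of genes and from -0.504 to 0.0147 in the outer 10%, while under B light they were -1.59 and -1.81. The kept loci held 18.7 ± 3.4% of the count in control and 21.2 ± 2.73% with PUT (SD, exact permutation p = 0.025). None of the 12 values tested was below 0.05 after adjustment. These 6 had an adjusted p of 0.06. The smallest p that the exact permutation could give was 0.005. With 12 values, a single one at that p could not pass the adjustment by itself, so this outcome does not show that the shares were equal. Over the kept loci alone, the share in genes was 0.0375 percentage points higher with PUT (p = 0.53, exact permutation). Without WC replicate 1 and BP replicate 3, the difference over all loci was -0.582 (p = 0.05, exact permutation). The part of these library-wide shifts in the counts of single loci was not tested.

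**Figure D4:**
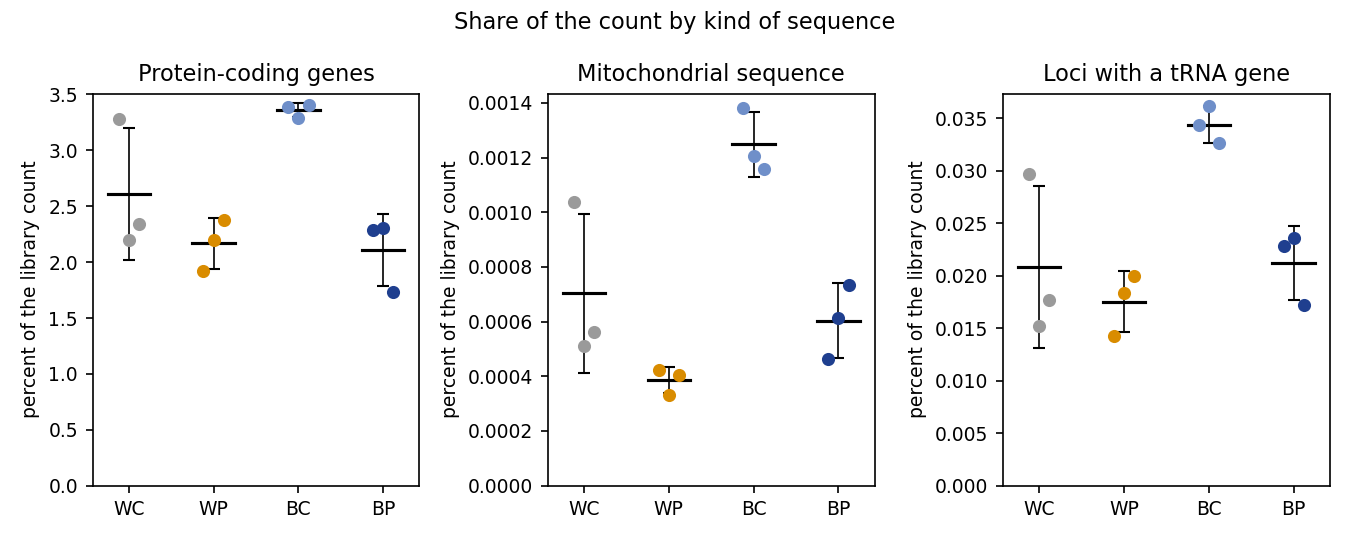
Share of the library count (y axis, percent) in protein-coding genes, mitochondrial sequence and loci with a tRNA gene, in WC, WP, BC and BP. Points are libraries, lines means and bars 1 SD of 3 libraries. BC is above BP in all 3 panels, and WC replicate 1 is the highest W library in each.

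The pooled comparison joins 2 lights whose estimated effects at single loci correlated weakly over all loci. Libraries of the same group also agreed weakly across loci, so a low r here cannot tell unlike effects from noise. Across the 338612 loci, the log2 fold changes of WP over WC and of BP over BC had r = 0.0299, and 51.6% had the same sign. These contrasts share no library. The correlation was 0.239 over the 2799 loci with a mean count above 30 and 0.634 over the 167 with one above 100. Under W light 2525 loci were called higher (0.746%) and 794 lower (0.234%), and under B light 412 (0.122%) and 209 (0.0617%). These counts share 1 estimate of the spread over all groups. With the 6 libraries of each light alone there were 728 calls under W and 832 under B light, so the larger number under W light rests on that choice. Of the 2525 and 412 loci called higher, 11 were common to both lights, and of the 794 and 209 called lower 1 was. At an adjusted p below 0.05 edgeR kept 1 locus under W light (0.000295%) and 0 under B light, where 4300 loci (1.27%) had an unadjusted p below 0.05 and where DESeq2 and the likelihood ratio test also kept 0. Under W light DESeq2 kept 131 higher and 20 lower loci and the likelihood ratio test 0. In limma voom with robust moderation it was 0 under W light and 49, all lower, under B light.

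Loci called in 1 light leaned the same way in the other in 3 of 4 sets. Of those called higher under W light, 64.3% had a positive value under B light, against 54.1% of all loci, and of those called higher under B light 64.1% were positive under W light, against 57.2%. Of those called lower under B light 59.3% were negative under W light (42.8% of all loci), but of those called lower under W light only 41.8% were negative under B light (45.9% of all loci). All 675 higher and 135 lower loci of the pooled comparison had the same sign in both lights, which the additive fit favours.

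**Figure D5:**
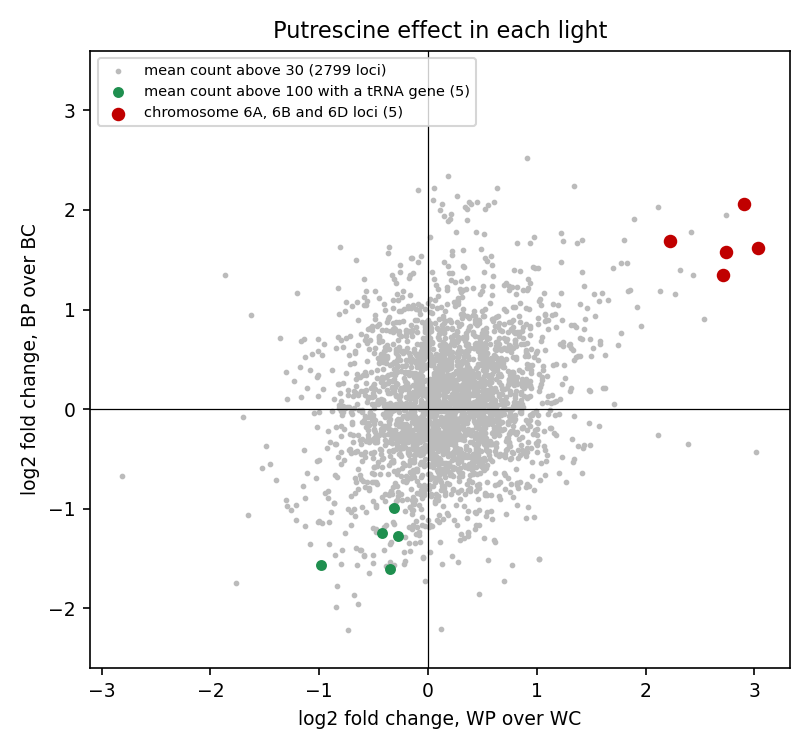
Log2 fold change of BP over BC (y axis) against that of WP over WC (x axis) for the 2799 loci with a mean count above 30. The 5 loci of chromosomes 6A, 6B and 6D lie at high values in both lights, and the 5 loci of high count with a tRNA gene are below 0 in both, lower under B light.

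The test of the difference between lights (interaction, effect under W minus effect under B) called 1399 loci, of which 888 were on the positive side (0.262%) and the rest on the negative side (0.151%). After adjustment edgeR kept 0 of the 7756 loci (2.29%) with an unadjusted p below 0.05, while DESeq2 kept 1 and the likelihood ratio test 0. The locus with the smallest p, on 7D at 164519761 to 164521204, had 14, 34 and 19 reads in WC and none in WP, and 0, 2 and 0 in BC against 21, 7 and 18 in BP. PUT and control were thus reversed between the lights at this locus, and the adjusted p was 1. On the positive side, a locus of 2A at 761552214 had no reads in WC and 11, 26 and 19 in WP, and 27, 8 and 28 in BC against 7, 14 and 12 in BP. The other loci with the smallest p were 1 each on 1D and 6A, empty in WC alone, and 1 each on 6B and 7D with at most 1 read in any WP library. For the 5 loci of group 6 the interaction had an unadjusted p between 0.0257 and 0.471 (adjusted p = 1), with larger log2 fold changes under W light at each.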

How the data were processed

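Per the methods and the submitters' notes, the authors used cutadapt and Trim Galore for trimming, BWA for alignment to IWGSC CS RefSeq v2.1, and bedtools both to define covered sections and to count reads there. The deposited values are raw counts per locus for 12 libraries, not normalized; removal of duplicates, the use of multiply aligned reads and tool versions are not given in the sources used here. Loci with a count above 10 in at least 4 libraries went into edgeR 4.0.16 under R 4.3.3 (TMM, estimateDisp, glmQLFit, glmQLFTest, design light + treatment, Benjamini-Hochberg over 338612 loci, common dispersion 0.808). Effects per light and the interaction came from a fit with 1 coefficient per group. DESeq2 1.42.0, the likelihood ratio test, limma 3.58.1 (voom, also with robust moderation, added after seeing the data), scalings, filters and left-out libraries were alternatives. The pipeline was tested on simulated data. Scaled counts are counts over library size and TMM factor, relative to their mean. Single values were tested by exact permutation within light, on log2(scaled count + 1) for loci. Genes came from the RefSeq annotation of the same build (102009 protein-coding genes on chromosomes, whole gene, no exons or strands), matched with bedtools 2.31.1, and product names of 1007 genes from lists of the study. No molecular identifiers mark the reads, so floors (3 counts) cover counting error only. No sequence is shown because no genome was used here.

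Loci are named by a rule: the 5 smallest p in each direction, the up to 10 called loci near genes with a product name and equal direction in both lights, up to 3 loci per gene list and the 3 smallest interaction p in each direction. The members and lists were chosen with earlier results of these data known. Loci of group 6, of 7B and 4D and of high count were named after their values were seen.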

Additional observations from a re-analysis of the deposited data

Results flagged for a closer look

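Of the 54 sets of 6 libraries screened for a library far from the others (Dixon's test), 5 were past it, and chance alone flags about 1 in 20. The scaling factor of WC replicate 1, 1.45, was far above those of the other control libraries. In the 100 loci with the highest total count, BP replicate 3 placed 0.391% of its count, far above the other PUT libraries, and BC replicate 2 placed 0.301%, far above the other controls. BC replicate 2 had a scaled count of 43.7 at the locus of 4A near LOC123084317, and BC replicate 3 had 139.6 at the leading locus of 6A, each far above the other controls. No cause was tested for any of the 5.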

How the results depend on the processing

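For PUT over both lights, 675 loci higher and 135 lower became 1543 and 392 in the likelihood ratio test, 2783 and 935 in DESeq2, 1321 and 326 in limma voom (1439 and 347 with robust moderation, chosen after seeing the data), and 1715 and 374 as the mean of the group contrasts. Filters gave 3459 and 2447 (above 10 in 2 libraries), 215 and 58 (in 6), 3028 and 1006 (above 5 in 4), 84 and 50 (above 20 in 4) and 2373 and 1227 (filter of the study). A p below 0.001 gave 71 and 12, treatment alone 401 higher, library size alone 358 lower, and leaving out WC replicate 1 and BP replicate 3, chosen after seeing the data, 474 lower. Leaving out 1 library gave 341 to 877 higher and 107 to 348 lower. The 4 loci with an adjusted p below 0.05 became 1 (likelihood ratio test), 18 (DESeq2), 74 (limma voom, 15 higher and 59 lower), 46 (robust), 18, 0, 19, 0 and 11 (filters, same order), 0 (treatment alone) and 0 to 7 without 1 library.

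Under W light 3319 calls became 6736 (likelihood ratio test), 7596 (DESeq2), 6 (limma voom), 10869, 692, 14260, 179 and 9105 (filters), 728 with the 6 libraries of that light alone (832 under B light) and 2555 to 8011 without 1 library. Under B light 621 became 1858, 2597, 9, 1835, 271, 2499, 121 and 1796 in the same order, 477 to 1089 without 1 library and 1759 without WC replicate 1 and BP replicate 3. The interaction went from 1399 to 3970, 4408, 0, 6156, 322, 6866, 74 and 5454 in the same order, 1054 to 4098 without 1 library and 2119 without those 2. In limma voom the fit per group had weights up to 1.95e+08 and a prior variance of 4.48. Only 0.00738% of loci had a p below 0.05 there under W light, so its counts are not relied on. With robust moderation and the same weights the prior variance was 0.975 and the calls 2419, 531 and 1825. Filters also change the number of loci tested, and the cause of none of these changes was tested. The fit without any filter was not run.

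With the replicate block, 665 loci were higher and 131 lower. The numbers do not pair the libraries (18 pairs with the same number, r of deviations -0.0883 to 0.158, median 0.00116), and the block changed no other count by over 1.5 times, but put the second locus of 6A at an adjusted p of 0.0416 (edgeR).

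Of 429 values for 49 named loci, 4 changed sign, at 3 loci that were not called: DRM2-like LOC123103996 (-0.54 without WC replicate 1 and BP replicate 3, -0.96 without WP replicate 2 to 0.62 with 1 library left out), 6B at 670811367 (-1.40 to 0.49, the latter without WP replicate 3) and 7D at 164519761 (-2.38 to 0.85, the latter without WP replicate 1). Over the kept loci alone, the share in genes changed sign to 0.0375 and that within 3000 bp of genes to 0.29 percentage points. Without strata of light, the share in kept loci (2.5) had p = 0.175 (exact permutation). Without WC replicate 1 and BP replicate 3, exact permutation gave p = 0.08 for subgenome B (-0.275), 0.06 for the outer 10% (-0.761), 0.05 for genes (-0.582) and 0.09 within 3000 bp of them (-0.595). Leaving out 1 library, the differences were -0.578 to -0.327, -1.29 to -0.9, -0.947 to -0.676 and -1.14 to -0.774 in the same order. Counts near 10 per locus and a dispersion of 0.808 limit what 6 libraries a side can show.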
